A study of Mus musculus with 9 samples.

Results

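The genes described here are 10 regulators of the RAS switch, chosen by symbol from the 46095 rows of the deposited count table. Of these, 5 encode exchange factors (GEFs), *Sos1*, *Sos2*, *Rasgrf1*, *Rasgrf2* and *Rasgrp1*, and 5 encode GTPase activators (GAPs), *Rasal1*, *Rasal2*, *Rasa1*, *Rasa2* and *Nf1*. RNA-seq was performed on intestinal epithelial cells (IECs) of 9 mice on a C57BL/6J background. The cells of 4 mice were Smad4-knockout (Smad4 Vil-KO) and those of 5 mice Smad4-knockout;Setd2-knockout (double-knockout), so the deletion of *Smad4*, which encodes the shared mediator of TGF-β and BMP signals, was common to both groups. Floxed alleles were deleted by Villin-Cre, which acts in the intestinal epithelium and not in other cells of the gut wall. All mice had received AOM/DSS, a colitis-associated tumour protocol. In the study's methods this is the carcinogen AOM (10 mg/kg) at an age of 8 weeks followed by 2% DSS in the drinking water, and IECs were released from the colon with EDTA at day 10. No mice without a deletion and no untreated mice were among these libraries.

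RAS proteins bind GDP when at rest and GTP when active. GEFs open the nucleotide pocket so that GTP enters, and GAPs speed the hydrolysis of GTP that ends the signal, so the 2 classes push the switch in opposite directions. Active RAS recruits RAF kinases and starts the MEK and ERK cascade, which drives proliferation of the intestinal epithelium and is often activated in colorectal tumours. SETD2 places trimethyl marks on lysine 36 of histone H3 along transcribed genes. The comparison addressed whether transcripts of either class differed when *Setd2* was deleted beside *Smad4*.

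The libraries held 12487129 to 17120202 counts. Depending on the library, 1 count equalled 0.0593 to 0.0793 CPM (counts out of 1000000 per library, after TMM scaling of the library sizes). The *Setd2* level was 113 ± 9.44 CPM in Smad4 Vil-KO (SD, n = 4) and 66.0 ± 14.7 CPM in double-knockout libraries (SD, n = 5), a log2 fold change of -0.77 (adjusted p = 0.00756, quasi-likelihood test of edgeR, adjusted by Benjamini-Hochberg across the genes tested), and the groups did not overlap. The *Smad4* level, with both groups deleted, was 64.1 ± 19.0 and 70.2 ± 34.3 CPM (adjusted p = 0.819). By library, *Smad4* ranged from 54.2 to 92.6 CPM in Smad4 Vil-KO and from 38.2 to 114 CPM in double-knockout libraries. The deposited counts are for whole genes, so reads of undeleted exons, where present, count towards both genes. Why counts of both genes remained was not tested. The epithelial markers *Epcam*, *Cdh1*, *Krt8*, *Krt18*, *Krt20* and *Vil1* summed to between 9750 and 11502 CPM in every library, and 0 of the 6 were called by edgeR, with 1 at an unadjusted p under 0.05 and 1 called by DESeq2. In double-knockout replicates 1, 2 and 5 the counts of Y-linked genes were above 1000, against at most 28 in the other 6 libraries. *Xist* had 5 or 6 counts in these 3 libraries and 17833 to 26617 in the other 6, which include all Smad4 Vil-KO libraries. Values without these 3 libraries are given for *Rasgrf2*, *Rasal1*, *Sos2* and *Araf*. RNA was taken from bulk cells, so that fewer cells of a type and less RNA per cell cannot be told apart.

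Counts were high enough to test 9 of the 10 genes, and 2 of these 9 were called at an adjusted p under 0.05. *Rasgrf2* rose and *Rasal1* fell in the double-knockout IECs. Over all 14593 genes tested, 13.3% were called, 6.76% as higher and 6.54% as lower, so in this fit 2 calls among 9 are not far from the background. That background moved with the libraries, from 847 to 2696 genes called when 1 library was left out, while the same 2 genes stayed called. The median log2 fold change was 0.07 over the 9 genes and -0.0006 over all genes tested. A looser rule, an unadjusted p under 0.05 with a change of more than 1.5-fold, was met by 13.8% of all genes tested and by the same 2 of the 9. The levels of all 10 genes spanned a wide range, from below 1 CPM to above 70 CPM, and both called genes lay in its lower part.

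**Figure D1:**
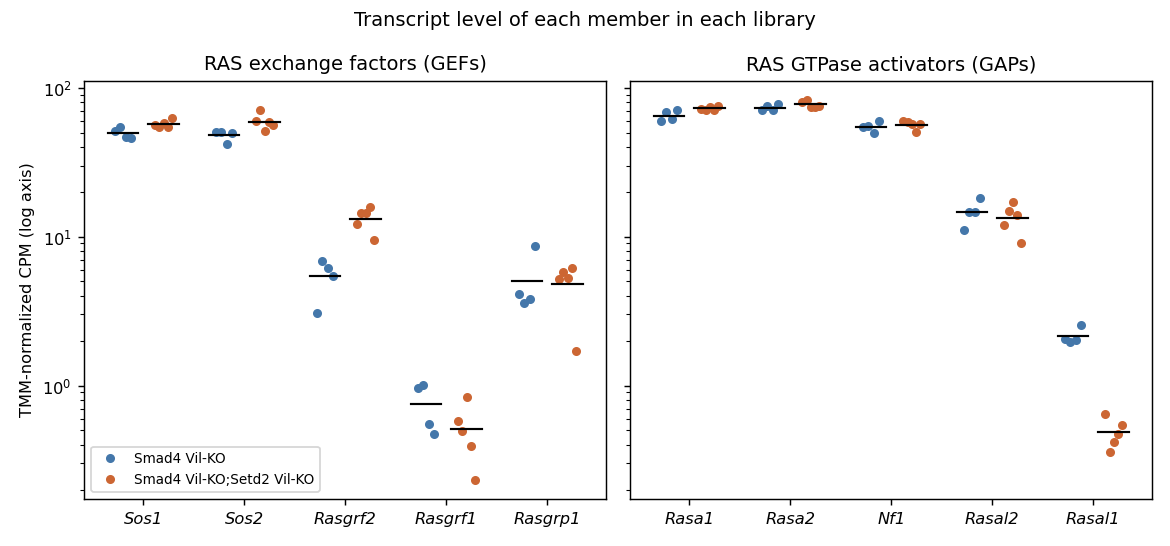
TMM-normalized CPM of each gene (log axis) in each library, with Smad4 Vil-KO in blue (n = 4) and Smad4 Vil-KO;Setd2 Vil-KO, the double-knockout, in orange (n = 5). Each point is 1 library and each bar the group mean. *Rasgrf2* lay between 3.07 and 6.88 CPM in Smad4 Vil-KO and between 9.44 and 15.8 CPM in double-knockout libraries, and *Rasal1* between 1.96 and 2.54 and between 0.355 and 0.640 CPM.

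*Rasgrf2* encodes a calcium- and calmodulin-regulated exchange factor that acts on RAS and RAC. The gene lies on the minus strand of chromosome 13 (chr13:91880400-92131656, mm10, the build named in the submitters' processing notes). As the exchange factor that rose, its start region is shown. These are the RefSeq bases from 250 before to 50 after the start (GRCm38.p6, chr13:92131779-92132078, minus strand, 5′ to 3′), with the same window of its paralog *Rasgrf1* (chr9:89909525-89909824, plus strand) for comparison and every CpG in capitals. RefSeq places both starts upstream of the GENCODE start of the gene, so each window lies wholly before the span given here for its gene.
Rasgrf2: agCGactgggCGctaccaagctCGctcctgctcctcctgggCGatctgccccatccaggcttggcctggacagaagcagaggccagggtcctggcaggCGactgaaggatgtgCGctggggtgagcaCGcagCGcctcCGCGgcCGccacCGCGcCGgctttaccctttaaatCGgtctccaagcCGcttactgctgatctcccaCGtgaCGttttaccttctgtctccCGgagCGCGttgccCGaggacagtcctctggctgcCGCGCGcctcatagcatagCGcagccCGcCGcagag
Rasgrf1: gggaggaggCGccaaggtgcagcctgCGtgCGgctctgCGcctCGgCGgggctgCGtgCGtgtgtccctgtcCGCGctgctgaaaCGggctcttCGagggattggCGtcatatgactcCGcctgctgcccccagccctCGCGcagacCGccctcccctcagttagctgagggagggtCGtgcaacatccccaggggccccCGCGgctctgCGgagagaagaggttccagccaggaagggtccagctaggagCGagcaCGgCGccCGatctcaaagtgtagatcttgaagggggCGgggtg
Both windows were rich in CpG, with 28 in *Rasgrf2* and 26 in *Rasgrf1*, more than in 85.8% and 83.1% of 32851 RefSeq promoter windows of this length. RefSeq windows were matched for 9 of the 10 genes, all but *Rasal1*, and held 26 to 54 CpGs, the highest number in *Sos2*. Motifs were searched on both strands. The *Rasgrf2* window held none of them, whereas the SP/KLF motif GGGCGG was in that of *Rasgrf1* and in those of *Sos2*, *Rasgrp1*, *Rasa1*, *Rasa2* and *Nf1*, and in 35.7% of all windows. The ETS motif CCGGAAG was in the windows of *Rasa1* and *Nf1* and in 8.86% of all windows. The SMAD palindrome GTCTAGAC was in none of the 9 windows and in 0.213% of all. The AP-1 motif TGANTCA was likewise in none of the 9 and in 7.81% of all. For the CRE motif TGACGTCA the share was 1.79%, for the TATA box motif TATAAA it was 13.6%, and neither was in the 9 windows. A match of letters is a description of the window and not of binding.

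The *Rasgrf2* level in the 4 Smad4 Vil-KO libraries was 3.07, 6.88, 6.19 and 5.47 CPM, from 48, 116, 101 and 69 counts. In the 5 double-knockout libraries it was 12.2, 14.3, 14.3, 15.8 and 9.44 CPM, from 190, 202, 205, 201 and 122 counts. Every double-knockout library was above every Smad4 Vil-KO library, as was so for 8.34% of all genes tested. The mean was 5.40 ± 1.66 and 13.2 ± 2.47 CPM (SD, n = 4 and n = 5), a log2 fold change of 1.29 (SE 0.24, adjusted p = 0.00706, edgeR). The ratio of these means was 2.44. A rise at least as large was found for 479 of the genes tested (3.28%). Without the 3 libraries with high Y-linked counts, the log2 fold change was 1.48 (adjusted p = 0.00503, edgeR).

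Some markers of other cells moved with the genotypes beside *Rasgrf2* and *Rasal1*. For comparison, edgeR called 6.76% of all genes tested as higher and 6.54% as lower. Of 4 enteroendocrine markers, *Chga*, *Chgb* and *Neurod1* were called higher and *Pyy* was not, and their sum was 50.8 to 79.6 CPM in Smad4 Vil-KO and 142 to 210 CPM in double-knockout libraries. Of 6 neuron and glia markers 2 were tested, and *Elavl4* was called higher (0.362 to 2.13 CPM). This list summed to 1.43 to 2.82 and 2.28 to 4.40 CPM, with the glial marker *Sox10* at 0 counts in all 9 libraries. Of 6 small intestinal enterocyte markers 4 were tested, and *Sis*, *Fabp6* and *Slc10a2* were called higher, with a list sum of 34.9 to 67.6 and 187 to 643 CPM. Of 4 mast cell markers *Cma1* was called lower (6.23 to 1.60 CPM), whereas *Cpa3* (2.26 and 2.72 CPM) and *Mcpt4* (0.773 and 0.691 CPM) were not called by any of the 3 tools. The sum of this list, 78.4 to 103 and 32.7 to 78.7 CPM, was mostly *Kit* (76.5 and 48.4 CPM), which edgeR did not call and DESeq2 and limma-voom called. Of 6 fibroblast markers 4 were tested and 0 were called by edgeR, with 1 called by DESeq2. At an unadjusted p under 0.05 there were 2 (*Dcn*, 6.72 and 17.2 CPM, and *Col3a1*, 5.46 and 9.38 CPM). *Col1a2* was at 2.54 and 3.47 CPM, and *Col1a1* went the other way, at 2.28 and 1.84 CPM. The fibroblast list summed to 10.8 to 25.9 and 18.7 to 57.7 CPM. The part of these cell types in the results on *Rasgrf2* and *Rasal1* was not tested.

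*Sos1* and *Sos2* encode the ubiquitous exchange factors that the adaptor GRB2 carries to activated receptors. *Sos2* (chr12:69583762-69681852, minus strand) was measured at 50.3, 50.4, 42.2 and 49.8 CPM in Smad4 Vil-KO libraries and at 60.1, 70.5, 51.6, 58.6 and 55.8 CPM in double-knockout libraries. Every double-knockout library was above every Smad4 Vil-KO library, as was so for 8.34% of all genes tested, although double-knockout replicate 3 lay close to the Smad4 Vil-KO range. The mean was 48.2 ± 3.998 and 59.3 ± 7.03 CPM, with a log2 fold change of 0.30 (95% interval 0.08 to 0.53), which did not pass the threshold (adjusted p = 0.0764, edgeR; 0.0414 to 0.354 over the alternatives, with DESeq2 the one that called it). Without the 3 libraries with high Y-linked counts it was 0.20 (adjusted p = 0.196, edgeR).

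*Sos1* (chr17:80393751-80480453, minus strand) was measured at 51.2, 54.5, 46.4 and 45.7 CPM and at 56.5, 54.2, 58.3, 54.6 and 62.2 CPM. Double-knockout replicate 2 fell just below Smad4 Vil-KO replicate 2, and the other 4 double-knockout libraries were above all Smad4 Vil-KO libraries. The mean was 49.5 ± 4.14 and 57.2 ± 3.27 CPM, with a log2 fold change of 0.21 (95% interval 0.03 to 0.39, adjusted p = 0.115, edgeR). At an unadjusted p under 0.05, 4 of the 9 genes were counted, *Sos1* and *Sos2* beside *Rasgrf2* and *Rasal1*, against 30.6% of all genes tested.

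*Rasgrp1* encodes an exchange factor activated by diacylglycerol and calcium that is best known from T cell receptor signalling. Its level (chr2:117279993-117343001, minus strand) was 4.10, 3.56, 3.80 and 8.64 CPM in Smad4 Vil-KO and 5.18, 5.75, 5.30, 6.20 and 1.70 CPM in double-knockout libraries. Both the highest value, in Smad4 Vil-KO replicate 4, and the lowest, in double-knockout replicate 5, stood apart from their own group. The mean was 5.02 ± 2.42 and 4.83 ± 1.79 CPM, with a log2 fold change of -0.05 (95% interval -0.87 to 0.78, adjusted p = 0.947, edgeR), an interval that holds changes in either direction. The direction of this small difference turned when Smad4 Vil-KO replicate 4 (0.33) or double-knockout replicate 5 (0.18) was left out, and without both the log2 fold change was 0.55 (adjusted p = 0.0842, edgeR).

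Of 7 T cell markers (*Cd3d*, *Cd3e*, *Cd3g*, *Cd2*, *Cd8a*, *Cd4* and *Lck*), 6 were tested and 0 were called by edgeR, DESeq2 or limma-voom, with 0 at an unadjusted p under 0.05. Their sum was 31.0, 25.0, 25.5 and 46.8 CPM in Smad4 Vil-KO and 49.7, 44.3, 41.7, 49.9 and 14.7 CPM in double-knockout libraries. The libraries that stood apart for *Rasgrp1* did so here on the same side within their groups. The 4 leukocyte markers *Ptprc*, *Coro1a*, *Lcp1* and *Cd52* summed to 135 CPM in Smad4 Vil-KO replicate 4 against 82.0 to 87.2 CPM in the other 3, and to 66.9 CPM in double-knockout replicate 5 against 116 to 155 CPM in the other 4. The part of T cells in the *Rasgrp1* level was not tested.

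**Figure D2:**
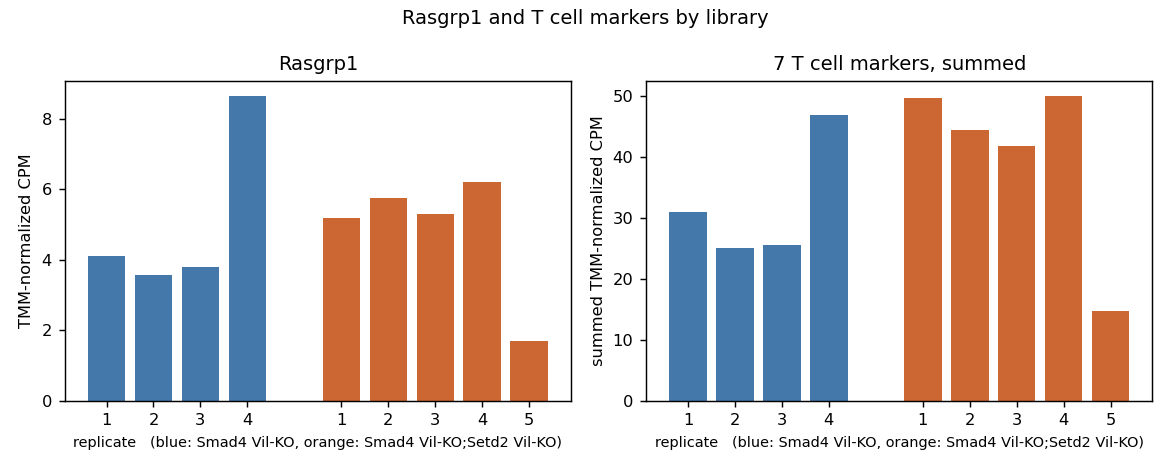
TMM-normalized CPM of *Rasgrp1* (left) and the summed CPM of 7 T cell markers (right) in each library, with bars from 0 for Smad4 Vil-KO (blue) and the double-knockout (orange). Smad4 Vil-KO replicate 4 was the highest of its group in both panels (8.64 and 46.8 CPM), and double-knockout replicate 5 the lowest of its group (1.70 and 14.7 CPM).

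*Rasgrf1*, the paralog of *Rasgrf2* that is known mainly from neurons (chr9:89909908-90026977, plus strand), did not pass the filter. It had 15, 17, 9 and 6 counts in Smad4 Vil-KO and 9, 7, 12, 5 and 3 counts in double-knockout libraries. These gave 0.961, 1.01, 0.552 and 0.476 CPM and 0.576, 0.497, 0.838, 0.393 and 0.232 CPM, and the groups overlapped. Tested without the filter, the log2 fold change was -0.57 (adjusted p = 0.492, edgeR), so no difference was detectable at this depth.

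Among the GAPs, *Rasal1* changed. It encodes a calcium-responsive GAP that is recruited to membranes through C2 domains. The level of this gene (chr5:120648812-120679597, plus strand) was 2.05, 1.96, 2.02 and 2.54 CPM in Smad4 Vil-KO libraries, from 32 or 33 counts in each. In double-knockout libraries it was 0.640, 0.355, 0.419, 0.471 and 0.542 CPM, from 10, 5, 6, 6 and 7 counts. Every double-knockout library was below every Smad4 Vil-KO library, as was so for 8.87% of all genes tested.

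The mean *Rasal1* level was 2.14 ± 0.266 and 0.485 ± 0.110 CPM (SD, n = 4 and n = 5), a log2 fold change of -2.12 (SE 0.27, adjusted p = 0.00113, edgeR). The ratio of these means was 4.41, lower in the double-knockout. A fall at least as large was found for 61 of the genes tested (0.418%). *Rasal1* passed the filter only through the Smad4 Vil-KO libraries, of which 4 of 4 were at or above its minimum of 0.697 CPM (before TMM scaling), against 1 of 5 double-knockout libraries. Without the 3 libraries with high Y-linked counts, the log2 fold change was -2.24 (adjusted p = 0.00487, edgeR).

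*Rasa1* and *Rasa2* encode p120 RasGAP, which binds activated receptor tyrosine kinases, and a related GAP of the GAP1 family. *Rasa1* (chr13:85214780-85289130, minus strand) was measured at 59.7, 68.6, 61.4 and 70.7 CPM and at 72.1, 71.3, 74.0, 70.4 and 75.9 CPM. The groups overlapped by a narrow margin, between Smad4 Vil-KO replicate 4 and double-knockout replicate 4. The log2 fold change was 0.16 (95% interval -0.01 to 0.33, adjusted p = 0.175, edgeR), from 65.1 ± 5.37 to 72.8 ± 2.21 CPM.

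*Rasa2* (chr9:96539300-96631617, minus strand) was at 73.6 ± 3.05 CPM (71.0, 75.1, 71.2 and 77.2) and 77.4 ± 3.77 CPM (79.9, 82.7, 74.0, 74.4 and 75.9). Its log2 fold change was 0.07 (95% interval -0.08 to 0.22, adjusted p = 0.509, edgeR). *Nf1* (chr11:79339693-79581612, plus strand), which encodes the tumour suppressor neurofibromin, was at 54.6 ± 4.21 CPM (54.2, 54.9, 49.5 and 59.8) and 56.5 ± 3.71 CPM (60.0, 58.5, 56.8, 50.2 and 56.9). The groups overlapped for both genes, and the interval of *Nf1* was -0.13 to 0.23 around a log2 fold change of 0.05 (adjusted p = 0.729, edgeR).

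*Rasal2* (chr1:157135182-157412595, minus strand), a GAP of the SYNGAP family, was measured at 11.1, 14.7, 14.7 and 18.3 CPM and at 11.9, 14.9, 17.2, 13.9 and 9.06 CPM. The means of 14.7 ± 2.92 and 13.4 ± 3.08 CPM differed by less than the spread within each group (log2 fold change -0.13, 95% interval -0.56 to 0.30, adjusted p = 0.678, edgeR). Exons of *Rasal2* overlap a pseudogene on the other strand over 244 bases and those of *Rasa1* overlap *Ccnh* over 12 bases, and whether the counting used strand is not given in the sources used here.

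**Figure D3:**
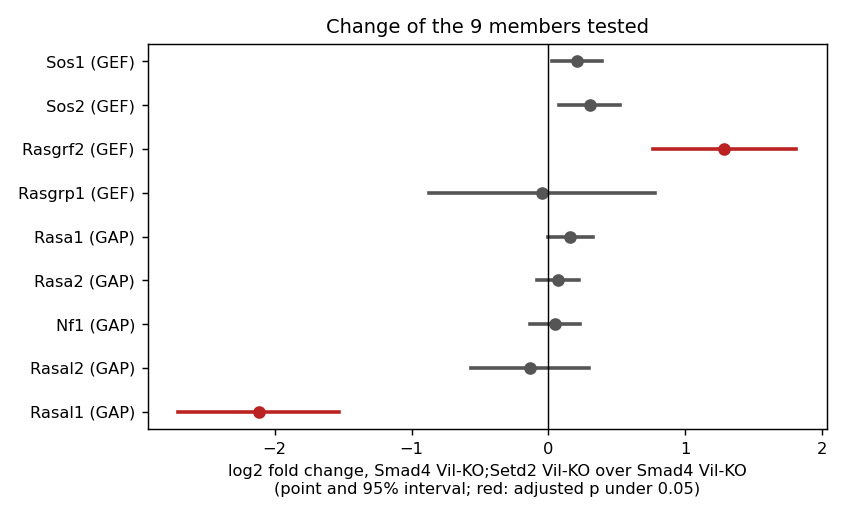
Log2 fold change, double-knockout over Smad4 Vil-KO, of the 9 genes tested, as the edgeR estimate (point) with its 95% interval (line), and in red where the adjusted p was under 0.05. The intervals of *Rasgrf2* and *Rasal1* lie well away from 0, those of *Sos1* and *Sos2* lie just above 0, and the others include it.

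To weigh each change by the level of its transcript, CPM was divided by the length in kilobases of the exons of all coding transcripts and summed over each class. These sums are described with no test. In Smad4 Vil-KO, *Sos2* took 53.3% of the GEF sum and *Sos1* 36.5%, against 5.95% for *Rasgrp1*, 3.66% for *Rasgrf2* and 0.545% for *Rasgrf1*. In double-knockout libraries the shares were 53.4%, 34.5%, 4.64%, 7.23% and 0.303% in the same order of genes. With this length *Rasgrf2* was in the fourth place by its mean in Smad4 Vil-KO and in the third in the double-knockout, although its range overlapped that of *Rasgrp1* in both genotypes (0.333 to 0.745 and 0.680 to 1.65 CPM per kilobase in Smad4 Vil-KO, 1.02 to 1.71 and 0.326 to 1.19 in the double-knockout).

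Of the GAP sum, *Rasa1* took 42.5% in Smad4 Vil-KO and 45.1% in double-knockout libraries, *Rasa2* 38.0% and 37.8%, *Nf1* 13.7% and 13.4%, *Rasal2* 3.84% and 3.33%, and *Rasal1* 1.92% and 0.412%. With this length the order of the 5 GAPs was the same in both genotypes. The ranges of *Rasa1* and *Rasa2*, neighbours in that order, overlapped in Smad4 Vil-KO (13.01 to 15.4 and 12.2 to 13.3 CPM per kilobase) and did not in the double-knockout (15.4 to 16.6 and 12.7 to 14.2).

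The GEF sum was 16.3, 16.99, 14.5 and 16.6 CPM per kilobase in Smad4 Vil-KO and 19.8, 21.7, 18.8, 19.9 and 18.7 CPM per kilobase in double-knockout libraries, with no overlap. Its mean was 16.1 ± 1.11 and 19.8 ± 1.21, a difference of 22.9%. The GAP sum was 31.3, 34.3, 31.7 and 36.0 and then 35.7, 36.1, 35.2, 33.7 and 35.3 CPM per kilobase, and these overlapped. Its mean was 33.3 ± 2.25 and 35.2 ± 0.904, a difference of 5.58%. The ratio of the GEF sum to the GAP sum was 0.519, 0.495, 0.458 and 0.460 in Smad4 Vil-KO and 0.555, 0.602, 0.533, 0.589 and 0.529 in double-knockout libraries, which did not overlap. These ratios compare transcripts, not protein or activity.

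**Figure D4:**
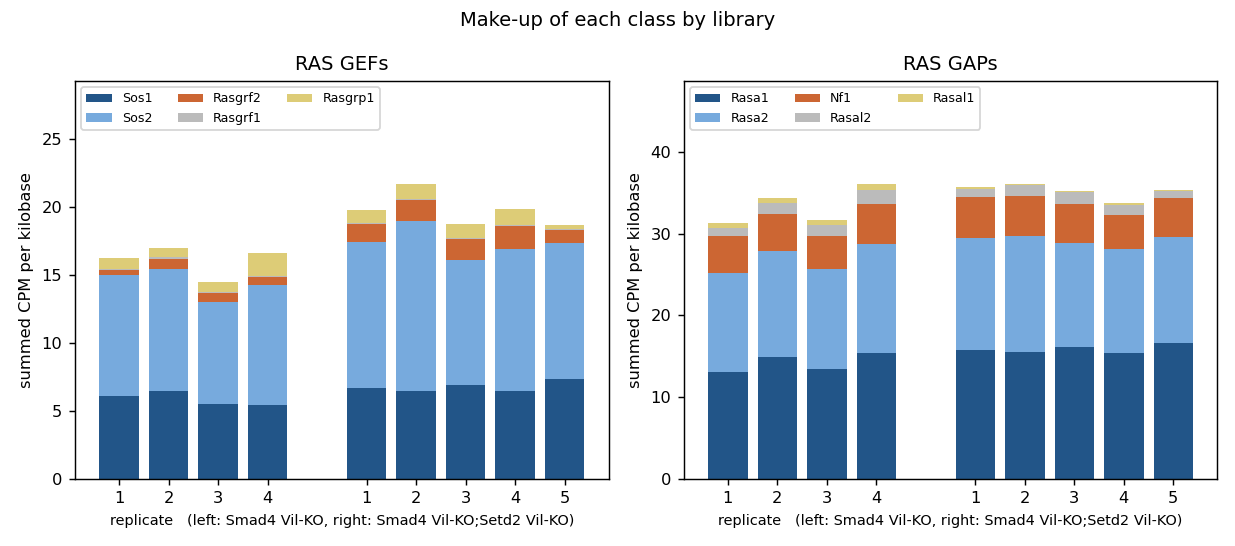
Summed CPM per kilobase of the GEFs (left) and GAPs (right) in each library, stacked by gene, with the 4 Smad4 Vil-KO libraries left of the 5 double-knockout libraries in each panel. *Sos1* and *Sos2* fill most of each GEF bar and *Rasa1* and *Rasa2* most of each GAP bar. GEF bars reach 14.5 to 16.99 in Smad4 Vil-KO and 18.7 to 21.7 in the double-knockout.

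The gene with the largest fold change was not the one with the largest weight in either class. As a percent of the GEF sum in Smad4 Vil-KO, the difference in *Sos2* amounted to 12.4%, that in *Sos1* to 5.70% and that in *Rasgrf2* to 5.25%, while *Rasgrp1* (-0.232%) and *Rasgrf1* (-0.177%) hardly counted. More of the difference in the GEF sum therefore came from *Sos1* and *Sos2*, which did not pass the test, than from *Rasgrf2*, which did. As a percent of the GAP sum, the fall of *Rasal1* amounted to -1.48%, less in size than the difference in *Rasa1* (5.02%). That in *Rasa2* was 1.94%, that in *Nf1* 0.459% and that in *Rasal2* -0.346%.

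These weights moved with the libraries. Without the 3 libraries with high Y-linked counts, *Sos2* gave 7.66%, *Rasgrf2* 6.49% and *Sos1* 5.19% of the GEF sum, and *Rasa1* gave 4.66%, *Rasa2* 0.287% and *Rasal1* -1.52% of the GAP sum. *Rasgrf2* gave more than *Sos1* also without double-knockout replicate 5 (5.89% and 4.76%), Smad4 Vil-KO replicate 3 (5.26% and 4.79%) or Smad4 Vil-KO replicate 4 (5.32% and 4.83%). *Rasa2* gave less in size than *Rasal1* without double-knockout replicate 2 (1.25% and -1.45%) or Smad4 Vil-KO replicate 1 (1.452% and -1.481%), and about as much without Smad4 Vil-KO replicate 3. *Sos2* and *Rasa1* kept the largest weights of their classes with each library left out in turn and without the 3 libraries together.

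These orders and the weight of *Rasgrf2* depended on the length taken. The main length of 9.237 kilobases, chosen after values with the other had been seen, includes untranslated exons that the basic set of transcripts (4.156 kilobases) mostly lacks. With the basic set, the share of *Rasgrf2* was 7.76% and 14.7%, its difference amounted to 11.2% of the GEF sum in Smad4 Vil-KO, close to the 11.8% of *Sos2*, and the GEF sum differed by 28.1%. The difference in *Rasgrf2* then exceeded that in *Sos1* (5.45%), as it also did with the longest coding sequence (7.72% and 6.88%) and, narrowly, with no division by length (7.17% and 7.10%). *Rasgrf2* already held a larger share than *Rasgrp1* in Smad4 Vil-KO with the basic set (7.76% and 5.70%) and with no division (4.98% and 4.62%). *Rasa2* took a larger share than *Rasa1* in Smad4 Vil-KO with the longest coding sequence (47.6% and 34.2%) and with no division (35.1% and 30.9%), and *Sos1* a larger share than *Sos2* (44.1% and 42.4%, 45.5% and 44.2%). With no division by length the difference in *Nf1* (0.873%) was larger in size than that in *Rasal1* (-0.788%). Over all 9 libraries and with each of these 4 weightings, the differences in *Sos1* and *Sos2* together exceeded that in *Rasgrf2*. Other lengths were not combined with libraries left out, so this order is not shown for such combinations.

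**Figure D5:**
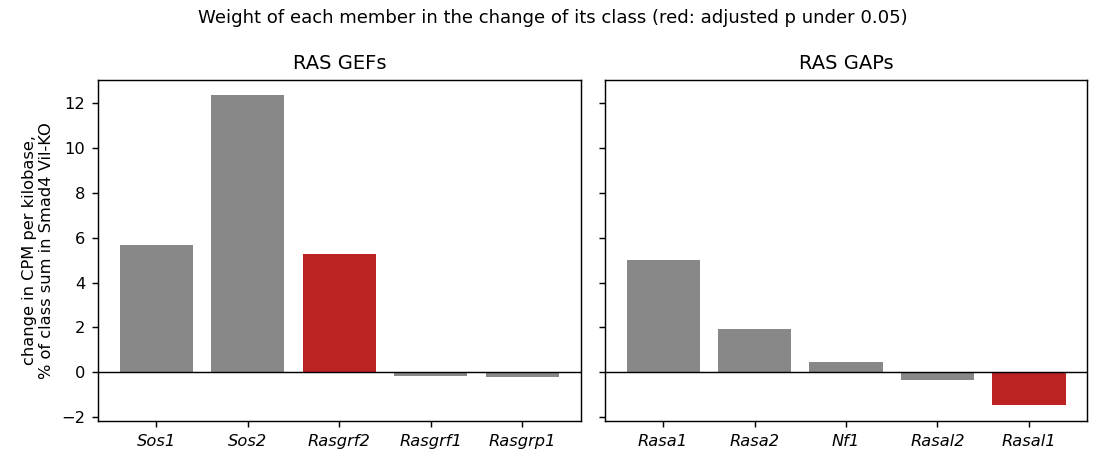
Difference of each gene in CPM per kilobase, double-knockout minus Smad4 Vil-KO, as a percent of the sum of its class in Smad4 Vil-KO (bars from 0, GEFs left and GAPs right, red where the adjusted p was under 0.05). *Sos2* has the tallest bar (12.4%), and *Rasal1*, with the largest fold change, a bar of -1.48%.

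The other genes of RAS activation were taken from lists of 41 genes, of which 37 were tested. Of these, 0 were called higher and 1 was called lower, against 6.76% and 6.54% of all genes tested. Their median log2 fold change was -0.02. None of 6 RAS GTPases, of 7 adaptors tested that bring SOS to receptors, of 2 other GEFs, of 5 other GAPs and of 8 partners and feedback inhibitors was called by edgeR. At an unadjusted p under 0.05 there were 2 RAS GTPases, 1 other GAP, 4 partners or feedback inhibitors, 0 adaptors or other GEFs, and 4 of the 9 RAF, MEK, ERK and scaffold genes, against 30.6% of all genes tested. *Nras* and *Hras*, which encode substrates of both classes, were at 73.0 ± 1.66 and 83.4 ± 7.38 CPM, and at 40.1 ± 4.76 and 36.0 ± 5.17 CPM (adjusted p = 0.133 and 0.405, edgeR). *Grb2*, the adaptor that binds SOS proteins, was at 86.1 ± 5.63 and 88.9 ± 5.34 CPM (adjusted p = 0.710, edgeR).

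The called gene, *Araf* (chrX:20797814-20860519, plus strand), encodes a RAF kinase that acts after RAS. Its level was 96.8, 89.5, 99.6 and 99.9 CPM in Smad4 Vil-KO and 78.8, 75.9, 81.4, 82.3 and 86.8 CPM in double-knockout libraries. Every double-knockout library was below every Smad4 Vil-KO library, as was so for 8.87% of all genes tested. The log2 fold change was -0.25 (SE 0.070, adjusted p = 0.0388, edgeR). This call was lost when any of 7 libraries was left out, namely Smad4 Vil-KO replicate 1, 3 or 4 (adjusted p = 0.0966, 0.115 and 0.0956, edgeR) or double-knockout replicate 1, 2, 3 or 4 (0.0619, 0.0712, 0.0666 and 0.0749). It was also lost without the 3 libraries with high Y-linked counts (log2 fold change -0.23, adjusted p = 0.0744, edgeR) and with a term for them (adjusted p = 0.137), with the replicate block (0.0806), with library size alone (0.0697) and without the filter on counts (0.0718).

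Of the other GAPs, *Rasa3* was at 43.6 ± 0.946 and 60.6 ± 14.4 CPM without overlap (log2 fold change 0.47, adjusted p = 0.0600, edgeR). Of the feedback inhibitors, *Spry4* was at 7.80 ± 1.37 and 4.64 ± 1.41 CPM and *Spred1*, whose protein brings neurofibromin to the membrane, at 56.1 ± 3.32 and 65.3 ± 4.01 CPM, both without overlap (adjusted p = 0.0683 and 0.0851, edgeR). *Rasa3*, *Spry4* and *Spred1* were named after their values were seen, and DESeq2 called all 3. Among all 14593 genes tested, DESeq2 called 2792. The groups did not overlap for 8.34% of all genes tested in the higher direction and for 8.87% in the lower. *Dusp7*, which encodes an ERK phosphatase at the far end of the cascade, fell from 9.88 ± 1.31 to 4.47 ± 1.36 CPM (log2 fold change -1.14, adjusted p = 0.00997, edgeR).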

How the data were processed

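For each of 9 libraries the authors deposited raw counts, 1 whole number for every gene symbol, without normalization. HISAT2 2.0 and mm10 are named in the submitters' processing notes, and the counting program, annotation, strand setting and differential expression tool are not given in the sources used here. Groups were taken from the genotype labels, and each library was treated as 1 mouse. All 16 pairs of libraries of the same genotype differed by more than counting error (mean chi-square for a gene, 9.92 or more).

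Counts were filtered with filterByExpr of edgeR 4.0.16 (R 4.3.3), scaled by TMM and tested with the quasi-likelihood test across all 9 libraries, with Benjamini-Hochberg adjustment over 14593 genes and no covariates. Standard errors were obtained from the fold change and its F statistic. Groups did not overlap when every library of one lay above every library of the other in TMM-normalized CPM. Rows whose symbols had been turned into dates (27) were kept without a name. The fitting code was tested on simulated counts. Lengths and positions came from GENCODE M21 (GRCm38, equal to mm10), and promoter windows from RefSeq (GRCm38.p6).

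The genes, the pathway and marker lists and the tests were chosen with earlier results of these data known. Genes were named by a rule: the 10 genes, *Setd2*, *Smad4*, *Dusp7* and every pathway gene with an adjusted p under 0.05. Other pathway genes and the markers named with values were chosen outside this rule, after their values were seen. Alternatives were DESeq2 1.42.0, voom of limma 3.58.1 with quality weights, other scalings, filters, robust dispersion, lengths, a replicate block, a term for Y-linked counts, and libraries left out. A library's depth sets the precision, and a count of 3 was worth 0.178 to 0.238 CPM. The labels give no litter, batch or date.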

Additional observations from a re-analysis of the deposited data

Results flagged for a closer look

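For the 10 genes and both class sums in each genotype, 24 groups of values in all, a library was looked for that stood apart from the rest of its group by more than the critical value of Dixon's test, which chance gives in about 1 of 20 groups. This was met in 4 groups. *Sos2* was at 42.2 CPM in Smad4 Vil-KO replicate 3, against 49.8 to 50.4 CPM in the other 3 libraries. *Rasal1* was at 2.54 CPM in Smad4 Vil-KO replicate 4, against 1.96 to 2.05 CPM. *Rasgrp1* was at 8.64 CPM in Smad4 Vil-KO replicate 4, against 3.56 to 4.10 CPM, and at 1.70 CPM in double-knockout replicate 5, against 5.18 to 6.20 CPM, both times on the same side as the summed T cell markers, whose part was not tested.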

How the results depend on the processing

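*Rasgrf2* was called under each of 20 alternatives (log2 fold change 1.10 to 1.48, adjusted p 4.2e-06 to 0.0243) and *Rasal1* under each of the 19 that tested it (-2.24 to -2.02, adjusted p 3.09e-06 to 0.0123). Under the stricter filter, which asked each library for 10 counts, *Rasal1* could not be tested, and 1 of 8 genes was called. DESeq2 also called *Sos2* (0.31, adjusted p = 0.0414). Small differences that did not pass the test changed sign. For *Rasgrp1* the log2 fold change was 0.074 with limma-voom, 0.25 with the replicate block, 0.20 with a term for Y-linked counts, 0.21 without the libraries with high Y-linked counts, -0.19 to 0.33 when 1 library was left out (0.18 without double-knockout replicate 5, 0.33 without Smad4 Vil-KO replicate 4), and 0.55 without both, an alternative chosen after seeing the data. For *Rasal2* it was 0.082, 0.089 and 0.094 with the Y-linked term, without those libraries and without both replicates. For *Nf1* it was -0.029 and -0.023 with the term and without those libraries. The cause was not tested.

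The count of genes called was 1941 of 14593, 2924 with limma-voom, 1285 with the term for Y-linked counts, 2930 without those libraries, and 847 (without Smad4 Vil-KO replicate 3) to 2696 (without double-knockout replicate 5) when 1 library was left out. In the pathway lists the count was 1, with 4 for DESeq2, 2 for limma-voom, 0 for library size alone, 0 without the filter, 0 with the replicate block, 0 with the Y-linked term, 2 without those libraries (*Map2k1* and *Spred1*, not *Araf*), 2 without both replicates (*Lztr1* and *Map2k1*), and 0 to 6 with 1 library left out. The log2 ratio of the GEF sums was 0.25 to 0.36 and that of the GAP sums 0.05 to 0.12 over all alternatives, and the lengths from basic transcripts and from the longest coding sequence were added after seeing the data, as were the weights of single genes with libraries left out. The replicate numbers did not pair the libraries (correlation of deviations -0.13 to 0.08), and the replicate block called 1618 genes and the same 2 of the 9. Low counts limit *Rasgrf1* and *Rasal1*. No scaling moved the median of all genes by over 0.1.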
